A study of Rattus norvegicus with 16 samples.

Results

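The comparison set all 8 ovaries of olaparib-treated rats against all 8 ovaries of vehicle rats, with the BRCA1 genotype held as a factor. All 16 arrays of the study entered it, 1 array per ovary, and every gene measured was included. The ovaries came from female rats of the Jcl:SD stock (Sprague-Dawley), either wild-type or BRCA1+/-, that is with 1 intact copy of Brca1. Each genotype had 4 vehicle and 4 olaparib ovaries. Olaparib was given under the skin at 50 mg/kg daily for 14 days, starting at 3 weeks of age, and ovaries were collected 24 h after the last dose. What the vehicle contained, and when the vehicle animals were injected and sampled, are not given in the sources used here. For each gene the olaparib minus vehicle difference was taken within wild-type and within BRCA1+/-, and the mean of these is called the pooled difference.

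Olaparib blocks poly(ADP-ribose) polymerases, chiefly PARP1 and PARP2, the enzymes that mark DNA breaks with chains of ADP-ribose and call repair proteins to them. Cells that lack homologous recombination, the repair route in which BRCA1 acts, tolerate this block poorly. The ovary of a rat of this age holds primordial and growing follicles, in which an oocyte is surrounded by granulosa cells, inside a stroma with theca cells, vessels and immune cells. Ovaries are dissected out of a pad of fat beside the oviduct, so that a piece of either can enter a sample.

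Values are log2 signals on which 0 lies close to the 75th percentile of each array, so that a difference of 1 is a doubling. At least 64.4% and at most 69.0% of the spots of an array were well above background, and Pearson correlations between arrays ranged from 0.902 to 0.992. The ovarian markers Foxl2, Amh and Fshr of granulosa cells, Zp3 and Gdf9 of oocytes, and Cyp17a1 and Insl3 of theca cells were well above background on all 16 arrays. A set of 6 arrays carried a signal of oviduct epithelium. The score of an oviduct list, the mean log2 signal of its 29 measured genes after each was centred over the arrays, was above 0 in wild-type olaparib replicates 1 and 3, BRCA1+/- vehicle replicates 3 and 4 and BRCA1+/- olaparib replicates 3 and 4. It ran from -2.31 to -1.04 in wild-type vehicle, from -1.65 to 3.49 in wild-type olaparib, from -2.21 to 3.62 in BRCA1+/- vehicle and from -1.95 to 2.55 in BRCA1+/- olaparib. Where leaving out these 6 arrays turned the sign of a list's median, or moved a gene with an unadjusted p under 0.05 by over 1.5 times, the value without them is given. Slide 1 carried the ovaries numbered 1 and 2 in each group, slide 2 those numbered 3 and 4, and 1595 genes were called between the slides. Without the 6 arrays with oviduct signal, wild-type olaparib keeps replicates 2 and 4, and each BRCA1+/- group keeps replicates 1 and 2. The remaining BRCA1+/- arrays are all on slide 1, so that leaving out the 6 cannot be told apart there from leaving out slide 2.

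No gene passed the test for a pooled olaparib difference. At a Benjamini-Hochberg adjusted p under 0.05 in limma, 0 of 20187 genes were called (0.0%), and the lowest adjusted p was 0.9998. At an unadjusted p under 0.05 there were 266 genes (1.32%), with 82 higher (0.406%) and 184 lower with olaparib (0.911%), where 5% of the genes would be 1009. This split turned to 390 higher and 192 lower without BRCA1+/- vehicle replicate 3, and to 229 and 204 with the oviduct score as a covariate. The lowest unadjusted p was 0.0012. The median pooled difference was -0.02, and the median of its absolute value was 0.12. Tested in each genotype alone, 872 genes of wild-type rats (4.32%) and 240 of BRCA1+/- rats (1.19%) had an unadjusted p under 0.05, and no gene was called in either.

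The arrays bounded the size of a shared response for most genes. The median standard error (SE) of a pooled difference was 0.21, and the median 95% interval reached 0.45 to either side. For 16374 genes (81.1%) that interval lay within a doubling and a halving, and for 7921 (39.2%) it lay within 0.5 to either side on the log2 scale. The fit had no term for the slide, so the spread behind these intervals includes the difference between the slides. Treatment accounted for a mean of 4.60% of a gene's sum of squares, genotype for 4.85%, their interaction for 6.54% and the slide for 16.8%. A term without any effect also takes up a share, so that these shares alone do not measure an effect.

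How many genes had the same sign in wild-type and BRCA1+/- ovaries varied with the arrays included. Of the 20187 genes, 8739 (43.3%) had the same sign in both genotypes, 3591 of them higher (17.8%) and 5148 lower (25.5%). That share was 51.2% without the 6 arrays with oviduct signal, 50.7% with the oviduct score as a covariate, 51.7% on slide 1, 40.3% on slide 2 and 51.9% without BRCA1+/- vehicle replicate 3. The pooled difference reached 1 in size at 456 genes (2.26%). A difference of at least 1 was seen in 1414 genes in wild-type (7.0%) and in 334 genes in BRCA1+/- (1.65%). It was met in both genotypes in the same direction by 39 genes (0.193%), 15 higher (0.0743%) and 24 lower (0.119%), and in opposite directions by 76 (0.376%). Arrays of olaparib and vehicle were fully separated in the same direction within both genotypes at 1 feature (0.00495%). An unadjusted p under 0.05 in each genotype, in the same direction, was reached by 5 features (0.0248%), and in opposite directions by 15 (0.0743%). Among the 266 genes with a pooled unadjusted p under 0.05, 243 (1.2% of all) had the same sign in both genotypes, which choosing on the mean of both favours. The interaction had an unadjusted p under 0.05 at 692 genes (3.43%) and was called at none.

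**Figure D1:**
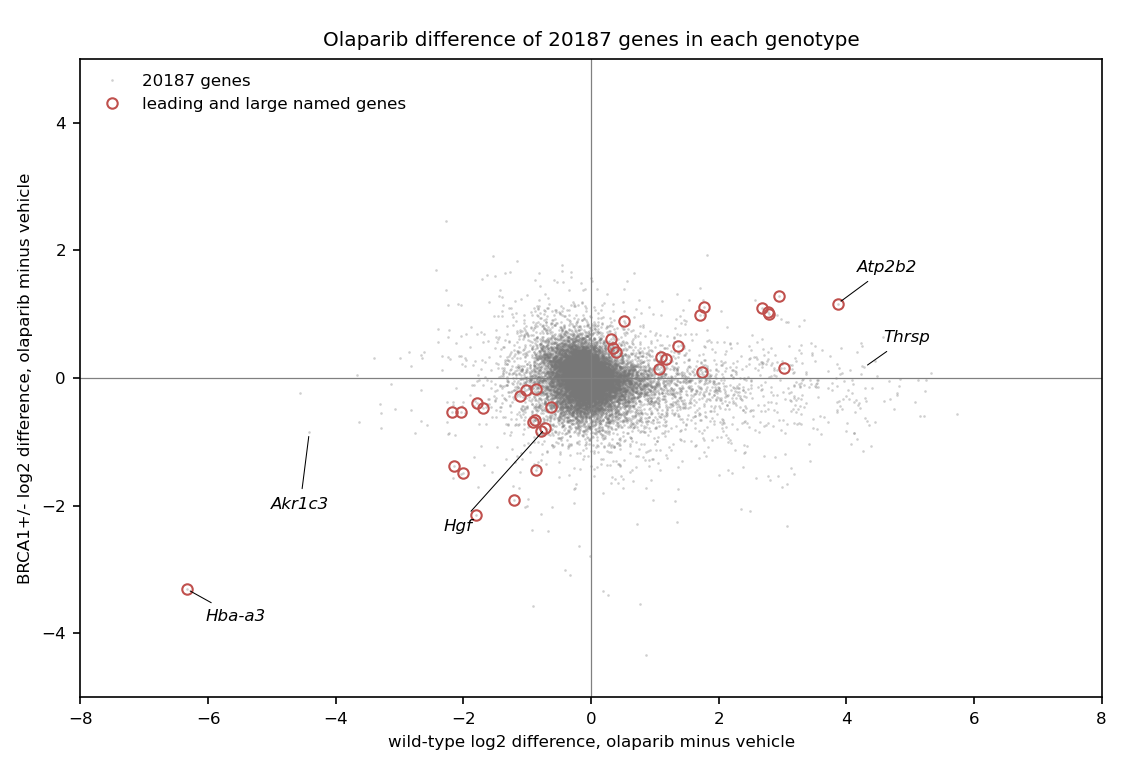
Olaparib minus vehicle difference on the log2 scale for each of 20187 genes in wild-type ovaries (horizontal axis) and BRCA1+/- ovaries (vertical axis). Each grey point is a gene and red rings are named genes. The cloud is wider along the wild-type axis, where 1414 genes reach a difference of 1, than along the BRCA1+/- axis, where 334 do. Akr1c3 and Thrsp, labelled, lie at -4.42 and 4.28 in wild-type and at -0.85 and 0.17 in BRCA1+/-.

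Genes are described first by the size of p among those with the same sign in both genotypes, 12 in each direction, since none was called. All 24 kept their direction in each of the 31 or 32 alternative analyses run on them, and their lowest adjusted p in any of these was 0.882. They were chosen for small p-values, which favours this. Of the 24, 10 were well above background on all 16 arrays. Akr1d1, Mctp1, Fundc2b, Prp2 and Naa11 met the detection filter through 1 group alone, so that the filter bears on their place among the 24. The rest were dim on some arrays, and normexp background correction, which adds an offset to low signals, brought the 24 differences into a range from -0.49 to 0.62.

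**Figure D2:**
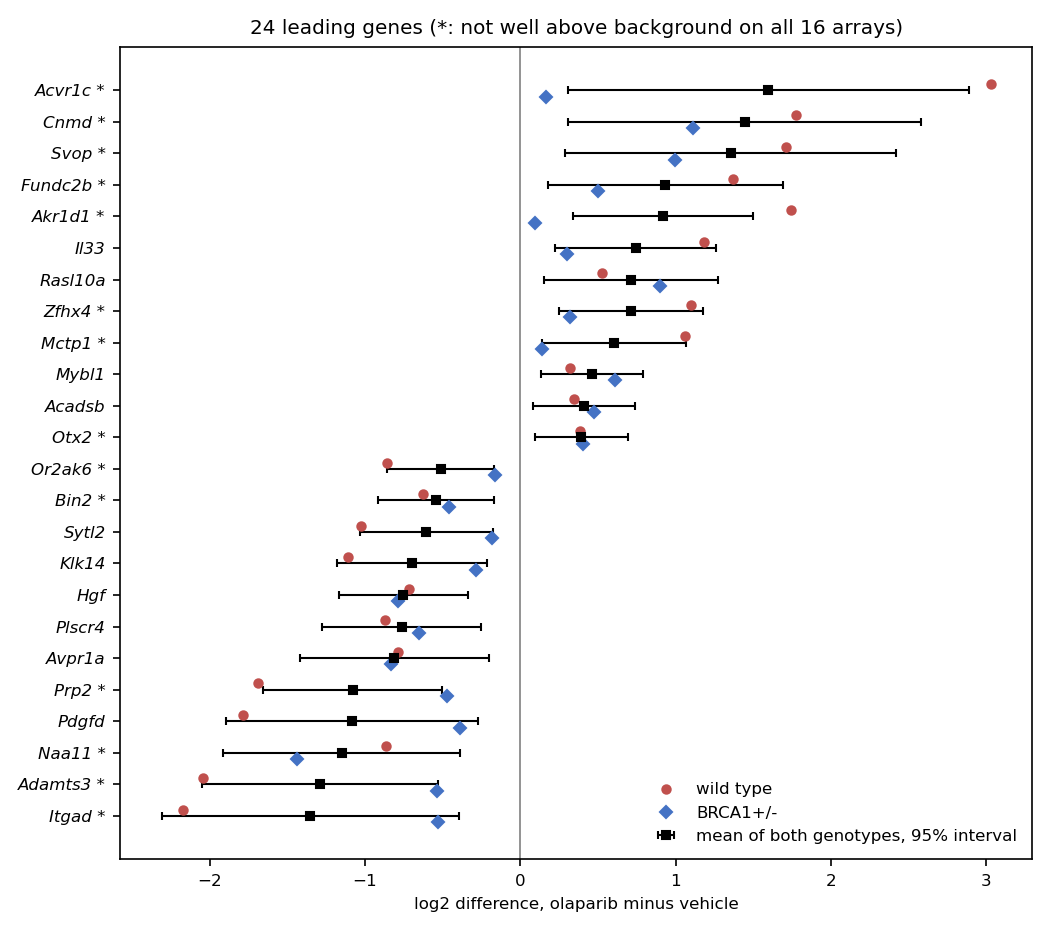
The 24 genes with the smallest unadjusted p and the same sign in both genotypes, 12 in each direction. Black squares with bars are the pooled log2 difference with its 95% interval, red circles the wild-type difference and blue diamonds the BRCA1+/- difference. In Hgf, Avpr1a and Otx2 the circle and the diamond nearly coincide, while in Akr1d1, Acvr1c, Adamts3 and Itgad the wild-type difference is several times that of BRCA1+/-.

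Hgf was lower in both genotypes by nearly the same amount. It encodes hepatocyte growth factor, a ligand that ovarian theca cells and stroma secrete and that acts through the receptor MET. Read by a probe at chr4:14863357-14863416 (rn4), its log2 signals were -3.55, -3.59, -2.75 and -3.98 in wild-type vehicle and -4.33, -3.93, -4.62 and -3.86 in wild-type olaparib. In BRCA1+/- they were -3.20, -3.45, -3.07 and -3.45 with vehicle and -4.69, -3.70, -4.10 and -3.85 with olaparib. The BRCA1+/- groups did not overlap, and in wild-type vehicle replicate 4 lay below olaparib replicates 2 and 4. The pooled difference was -0.75 ± 0.19 (SE, 95% interval -1.17 to -0.34), or 1.69-fold lower, with -0.72 in wild-type and -0.79 in BRCA1+/-. Its unadjusted p was 0.00163, and it did not pass over all genes. Leaving out any array kept it between -0.84 and -0.63, and without the 6 arrays with oviduct signal it was -0.65. A dimmer second probe of Hgf, well above background on 10 arrays, gave -0.83 ± 0.18 (SE), with -1.31 in wild-type and -0.35 in BRCA1+/-. With normexp correction the main probe gave -0.26. In bulk tissue, fewer cells of a type and less RNA per cell cannot be told apart for this or any other gene. The receptor gene Met, named outside the rule for its role, differed by 0.07 ± 0.17 (SE) and by -0.11 ± 0.28 (SE) at a second probe.

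The sequences of the 250 bases before the start site of Hgf, Il33 and Plscr4 are shown because these are leading genes read on all 16 arrays, and so that the region upstream of each can be inspected. They are from RefSeq, build GRCr8, written 5′ to 3′ on the strand of the gene. Hgf lies on the minus strand at chr4:19700468-19700717, Il33 on the plus strand at chr1:237115323-237115572 and Plscr4 on the plus strand at chr8:101866807-101867056. Capitals mark a CCAAT box in either orientation.
Hgf: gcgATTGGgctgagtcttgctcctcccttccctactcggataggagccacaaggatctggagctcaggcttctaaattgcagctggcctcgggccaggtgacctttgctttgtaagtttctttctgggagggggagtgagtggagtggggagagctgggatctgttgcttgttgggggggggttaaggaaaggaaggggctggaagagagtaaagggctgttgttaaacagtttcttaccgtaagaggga
Il33: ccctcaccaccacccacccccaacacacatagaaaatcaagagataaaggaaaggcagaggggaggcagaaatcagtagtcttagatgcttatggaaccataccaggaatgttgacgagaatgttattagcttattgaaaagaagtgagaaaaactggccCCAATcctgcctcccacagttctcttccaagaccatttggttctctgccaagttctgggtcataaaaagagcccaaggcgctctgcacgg
Plscr4: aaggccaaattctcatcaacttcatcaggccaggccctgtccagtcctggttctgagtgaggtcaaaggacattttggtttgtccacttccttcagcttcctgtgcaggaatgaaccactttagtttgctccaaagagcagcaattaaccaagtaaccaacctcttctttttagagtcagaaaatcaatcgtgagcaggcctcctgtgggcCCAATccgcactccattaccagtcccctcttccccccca
The windows were searched on both strands for the TATA box, spelled TATAAA, and for the AP-1 site, spelled TGANTCA. They were also searched for the CCAAT box and for the GC box, spelled GGGCGG, and no matches overlapped. CCAAT began at -90 from the start site in Il33 and at -39 in Plscr4, and its reverse complement ATTGG at -247 in Hgf. Of 33469 promoter windows of this length, 34.0% hold a CCAAT box, 12.9% the TATA box, 6.34% the AP-1 site and 30.5% the GC box. None of the other motifs matched in these windows.

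Plscr4, which encodes a phospholipid scramblase of the plasma membrane, had signals of -4.18, -3.69, -2.89 and -3.90 in wild-type vehicle and -4.91, -4.53, -3.80 and -4.91 in wild-type olaparib. In BRCA1+/- they were -3.12, -3.56, -3.51 and -3.86 with vehicle and -4.70, -3.41, -4.43 and -4.12 with olaparib. Most olaparib arrays were the lower ones, but olaparib replicate 3 in wild-type and replicate 2 in BRCA1+/- lay among the vehicle arrays. Pooled, the difference was -0.76 ± 0.24 (SE), with an unadjusted p of 0.00642, and -0.24 with normexp correction.

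Avpr1a, the vasopressin receptor of smooth muscle and other cells, differed by -0.81 ± 0.28 (SE), with -0.79 in wild-type and -0.83 in BRCA1+/-. Its signals were -3.14, -2.99, -2.83 and -2.47 in wild-type vehicle and -4.24, -3.53, -4.26 and -2.56 in wild-type olaparib. In BRCA1+/- they were -2.45, -2.57, -3.38 and -2.0 with vehicle and -4.22, -3.32, -3.48 and -2.71 with olaparib. The groups overlapped in both genotypes. Bin2, a gene of membrane curvature expressed mainly in blood cells, differed by -0.54 ± 0.17 (SE), with -0.63 in wild-type and -0.46 in BRCA1+/-.

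Pdgfd, Adamts3, Itgad, Sytl2 and Klk14 had larger differences in wild-type than in BRCA1+/-, with unadjusted interaction p-values from 0.0521 to 0.0864 and none called. Pdgfd encodes a platelet-derived growth factor that acts on the receptor PDGFRB of pericytes and stroma. Its signals were -1.87, -1.77, -1.68 and -1.31 in wild-type vehicle against -3.98, -3.53, -4.65 and -1.62 in wild-type olaparib, so that 3 of 4 olaparib arrays lay far below and the last lay among the vehicle arrays. In BRCA1+/- vehicle they were -1.87, -1.6, -1.48 and -1.80, and with olaparib replicate 2 alone was far lower, at -3.38, beside -2.07, -1.57 and -1.27. The pooled difference was -1.09 ± 0.38 (SE), and the interaction had an unadjusted p of 0.0859. Pdgfrb itself differed by -0.47 ± 0.24 (SE), with -0.70 in wild-type and -0.25 in BRCA1+/-, and by -0.15 without the 6 arrays with oviduct signal.

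Adamts3 encodes a protease that trims procollagens and activates the lymphatic growth factor VEGFC. It read -4.13, -2.60, -3.14 and -2.68 in wild-type vehicle and -5.26, -4.90, -6.26 and -4.29 in wild-type olaparib, with no overlap. In BRCA1+/- the vehicle arrays read -3.25, -3.67, -3.95 and -3.85, and the olaparib arrays split into -4.97 and -5.20 on slide 1 and -3.57 and -3.14 on slide 2. Pooled, the difference was -1.29 ± 0.35 (SE), with an unadjusted p of 0.00258, and 2 of 4 wild-type olaparib arrays were not well above background. A second Adamts3 probe gave -0.32 ± 0.33 (SE), with 0.17 in BRCA1+/-, so the probes disagree in that genotype. Vegfc, named outside the rule for its role, differed by -0.24 ± 0.24 (SE).

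Itgad, an integrin subunit of macrophages, read -3.40, -2.68, -2.67 and -3.28 in wild-type vehicle and -5.91, -4.00, -5.62 and -5.20 in wild-type olaparib, without overlap and with 1 of 4 olaparib arrays well above background. In BRCA1+/- the groups overlapped, with -2.98, -2.05, -5.08 and -2.26 against -4.78, -3.79, -2.40 and -3.52. Its pooled difference was -1.35 ± 0.45 (SE). Sytl2, which links vesicles to the membrane in secreting cells, differed by -0.60 ± 0.20 (SE), with -1.03 in wild-type and -0.18 in BRCA1+/-. Klk14, a serine protease, differed by -0.70 ± 0.22 (SE) and by -0.85 ± 0.34 (SE) at a second probe, both larger in wild-type.

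The other leading genes that were lower were read near background. Prp2, a salivary proline-rich protein gene, had the smallest unadjusted p of all named genes, 0.0012, with a pooled difference of -1.08 ± 0.27 (SE). Prp2 differed by -1.69 in wild-type and by -0.47 in BRCA1+/-, with an unadjusted interaction p of 0.0393. No wild-type olaparib array read it well above background, and there it was at least 2.07-fold lower, a bound that sets the vehicle mean against, for each olaparib array, the higher of the probe's own signal and the dimmest signal still well above background. This and the other bounds given as at least a fold compare group means, and do not cover the spread between ovaries. Naa11, an N-terminal acetyltransferase subunit, differed by -1.15 ± 0.36 (SE), and in BRCA1+/- every olaparib array, from -7.41 to -5.23, lay below every vehicle array, from -5.06 to -3.99. Or2ak6, an olfactory receptor gene, differed by -0.51 ± 0.16 (SE), with -0.86 in wild-type and -0.17 in BRCA1+/-. Its unadjusted interaction p was 0.0472, and neither this interaction nor that of Prp2 was called.

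Among genes that were higher with olaparib, Il33 encodes interleukin 33, an alarm cytokine kept in the nuclei of endothelial, epithelial and stromal cells. Read at chr1:233685259-233685318 (rn4), it gave -1.44, -2.60, -2.37 and -2.33 in wild-type vehicle and -0.15, -0.69, -1.31 and -1.86 in wild-type olaparib. The BRCA1+/- ovaries gave -1.73, -2.14, -1.75 and -1.24 with vehicle and -1.12, -1.55, -1.66 and -1.32 with olaparib. In wild-type 3 of 4 olaparib arrays lay above every vehicle array, and in BRCA1+/- the groups overlapped. The pooled difference was 0.74 ± 0.24 (SE, 95% interval 0.23 to 1.26), or 1.67-fold, with 1.18 in wild-type and 0.30 in BRCA1+/-. Its unadjusted p was 0.00799. It was 1.1 on slide 1 and 0.38 on slide 2, and 0.76 without the 6 arrays with oviduct signal. Il1rl1, its receptor gene, named outside the rule for its role, differed by -0.16 ± 0.42 (SE) and by -0.88 ± 1.28 (SE) at a second probe.

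Mybl1, a MYB family transcription factor best known from male meiosis, was higher in both genotypes. It read -1.51, -1.59, -2.02 and -2.27 in wild-type vehicle and -1.5, -1.45, -1.25 and -1.91 in wild-type olaparib. In BRCA1+/- every olaparib array, at -1.5, -2.0, -2.02 and -1.51, lay above every vehicle array, at -2.60, -2.14, -2.21 and -2.52. Pooled, the difference was 0.46 ± 0.15 (SE), with 0.32 in wild-type and 0.61 in BRCA1+/-, and the unadjusted p was 0.00927.

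Cnmd and Svop had large differences in both genotypes with wide errors. Cnmd encodes chondromodulin, an inhibitor of vessel growth, and read -3.12, -6.81, -2.65 and -3.48 in wild-type vehicle and -2.08, -2.25, -0.98 and -3.63 in wild-type olaparib. In BRCA1+/- it read -4.37, -4.32, -3.51 and -4.04 against -2.96, -2.62, -3.80 and -2.40, with a single olaparib array among the vehicle values. Its pooled difference was 1.45 ± 0.53 (SE), and 0.98 without wild-type vehicle replicate 2. Svop, a synaptic vesicle transporter-like gene, differed by 1.35 ± 0.50 (SE), and by 0.21 ± 0.22 (SE) at a second probe read on every array.

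Rasl10a, a small GTPase gene, differed by 0.71 ± 0.26 (SE), with 0.52 in wild-type and 0.90 in BRCA1+/-, and by 0.39 ± 0.25 (SE) at a second probe. Acadsb, a mitochondrial enzyme of branched-chain fatty acid breakdown, differed by 0.41 ± 0.15 (SE) and by 0.06 ± 0.15 (SE) at a second probe, which was lower in BRCA1+/- by 0.15 on the log2 scale. Otx2, a homeobox factor of head development, differed by 0.39 ± 0.14 (SE), with 0.38 in wild-type and 0.40 in BRCA1+/-, close to background. In wild-type all 4 of its olaparib arrays, from -4.45 to -3.94, lay above all vehicle arrays, from -4.73 to -4.47.

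Acvr1c, Akr1d1, Zfhx4, Mctp1 and Fundc2b had larger differences in wild-type than in BRCA1+/-. Their unadjusted interaction p-values were 0.0321, 0.00844, 0.0929, 0.0508 and 0.236, and none was called. Acvr1c, the receptor ALK7 for activins and related ligands, which fat cells also express, read -3.14, -7.08, -5.14 and -4.24 in wild-type vehicle and 0.09, -1.08, -2.82 and -3.68 in wild-type olaparib. The BRCA1+/- ovaries read -4.50, -4.32, -2.40 and -3.43 against -2.77, -4.13, -3.47 and -3.61. The pooled difference was 1.60 ± 0.60 (SE), with 3.03 in wild-type and 0.16 in BRCA1+/-. Both its highest arrays, wild-type olaparib replicates 1 and 2, also had the highest scores of the adipocyte list, 1.80 and 1.24. Acvr1c is itself a member of that list, so that its own signal enters the score. The part of fat tissue in the pooled difference of Acvr1c was not tested.

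Akr1d1, the steroid 5-beta-reductase, was well above background on 3 arrays, all of wild-type olaparib. There it was at least 2.02-fold higher than in wild-type vehicle, and in BRCA1+/- no array of either group read it well above background. It entered the analysis through that group alone, so that a difference was built into its choice, and its pooled difference of 0.92 was 0.61 without the 6 arrays with oviduct signal. Zfhx4, a zinc finger homeobox gene, differed by 0.71 ± 0.22 (SE), with 1.1 in wild-type and 0.32 in BRCA1+/-. Mctp1, a calcium-binding membrane protein gene, differed by 0.60 ± 0.22 (SE) and was at least 1.74-fold higher in wild-type, where no vehicle array read it well above background. Fundc2b differed by 0.93 ± 0.35 (SE), 1.37 in wild-type and 0.50 in BRCA1+/-, with 7 of 16 arrays well above background.

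The features with an unadjusted p under 0.05 in each genotype and the same sign were Hgf, the uncharacterised gene LOC102551157 and 3 probes without a gene name. Apart from Hgf they were named after their values were seen. The probe A_44_P1159959, at chr15:85375813-85375872 (rn4), was the feature whose groups were fully separated in both genotypes. It read -3.68, -3.39, -2.45 and -3.55 in wild-type vehicle and -4.80, -3.81, -4.43 and -3.69 in wild-type olaparib. In BRCA1+/- it read -3.65, -3.35, -2.94 and -3.67 against -4.39, -4.13, -3.93 and -3.95. The gap between the groups was small in wild-type, where the lowest vehicle array and the highest olaparib array nearly met. Its pooled difference was -0.80 ± 0.21 (SE), and the unadjusted p was 0.0018.

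A_44_P121547 lies close by on the same chromosome, at chr15:85392158-85392214, and was also lower, at -0.73 ± 0.20 (SE). Its signals were -3.59, -3.59, -3.53 and -3.45 in wild-type vehicle and -4.17, -3.65, -4.69 and -4.18 in wild-type olaparib, without overlap. In BRCA1+/- they were -3.19, -3.23, -4.33 and -3.71 against -4.31, -4.08, -5.05 and -4.30, where vehicle replicate 3 lay at the level of the olaparib arrays. Whether both probes read the same transcript was not tested. A_44_P238722, at chr14:13960757-13960816, differed by -0.64 ± 0.20 (SE), and by -0.43 without the 6 arrays with oviduct signal. LOC102551157, well above background on 6 arrays, differed by 1.04 ± 0.27 (SE), with 1.09 in wild-type and 0.98 in BRCA1+/-.

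**Figure D3:**
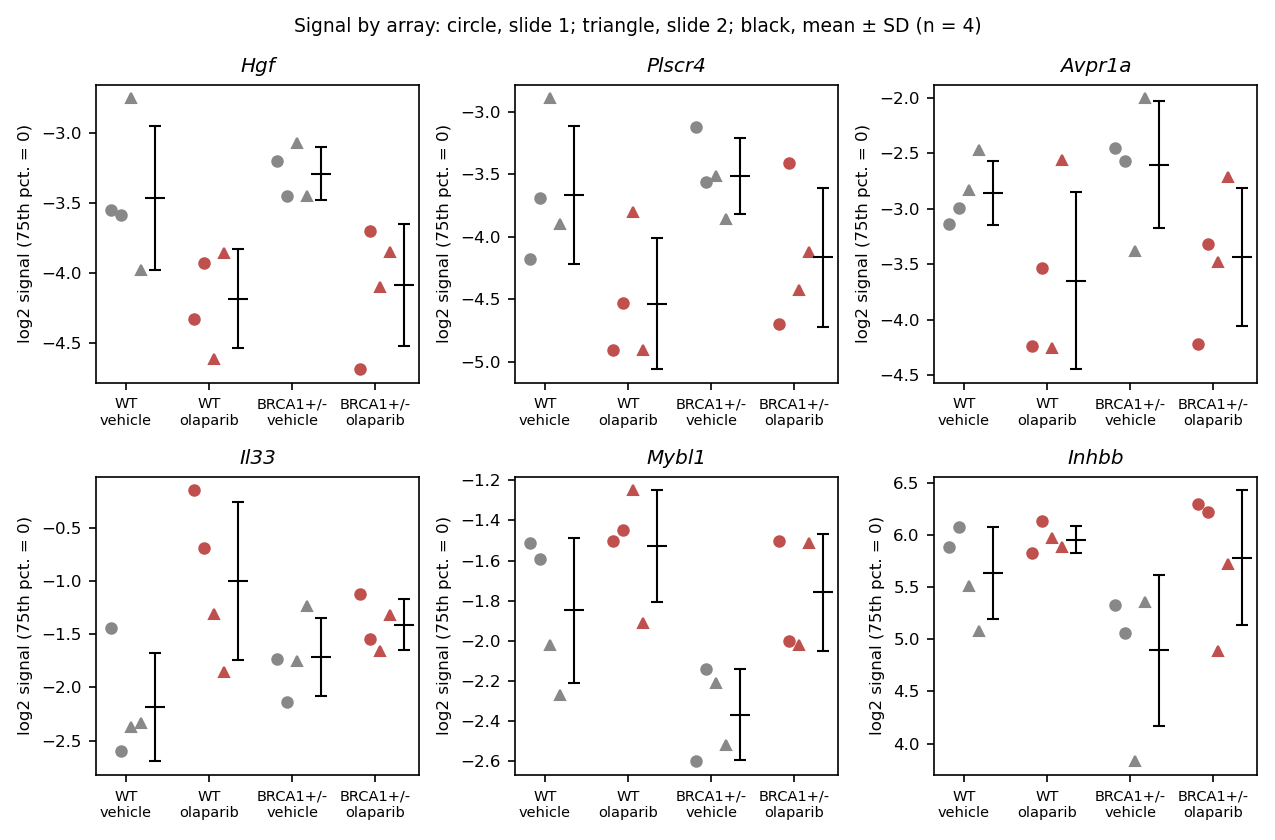
Log2 signal on each of the 16 arrays for 6 genes, by group. Points are single ovaries, circles on slide 1 and triangles on slide 2, with vehicle in grey and olaparib in red, and black bars are the mean and SD of the 4 arrays of a group. In Hgf the BRCA1+/- olaparib arrays lie from -4.69 to -3.70, all below the vehicle arrays at -3.45 or more, and in Mybl1 the BRCA1+/- olaparib arrays lie above all vehicle arrays of that genotype.

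No difference was called for the genes of the drug's targets or of the genotype. Parp1, whose product makes most of the cell's ADP-ribose chains, read 4.43, 4.41, 4.33 and 4.12 in wild-type vehicle and 3.80, 4.27, 4.12 and 4.19 in wild-type olaparib. The BRCA1+/- ovaries read 4.24, 4.22, 3.82 and 3.97 against 4.34, 4.25, 4.01 and 4.07. Its pooled difference of -0.06 ± 0.11 (SE) had a 95% interval from -0.30 to 0.18, so that a change of 1.5-fold lay outside it. Parp2 differed by -0.06 ± 0.20 (SE, 95% interval -0.49 to 0.37) and Parp3, which acts in break repair, by 0.01 ± 0.29 (SE, 95% interval -0.61 to 0.62). These pooled values are means of opposite signs. Parp1 differed by -0.23 in wild-type and 0.11 in BRCA1+/-, Parp2 by -0.34 and 0.23, and Parp3 by -0.55 and 0.56. The interaction of Parp3 had an unadjusted p of 0.0729 and was not called. Brca1 differed by 0.14 ± 0.19 (SE), with -0.12 in wild-type and 0.40 in BRCA1+/-. These 4 genes changed sign under some alternatives, with Brca1 at -0.21 on slide 1 and 0.49 on slide 2.

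Few features were far apart in both genotypes, and the ones with the largest pooled differences had the largest spread. The 5 named genes with the largest pooled difference among the 15 features higher by at least 1 in each genotype were Atp2b2 (2.51 ± 1.62, SE), Sbp (2.12 ± 0.99, SE), Cmahp (1.91 ± 0.91, SE), Ptprh (1.90 ± 0.99, SE) and Zg16b (1.89 ± 0.94, SE). No wild-type vehicle array read Ptprh well above background, and in that genotype it was at least 3.73-fold higher with olaparib. Its wild-type olaparib arrays had an SD of 2.93, and 2 of 4 read it well above background. Ptprh met the detection filter through BRCA1+/- olaparib alone and Atp2b2 through the olaparib groups alone. For both, a difference was thus built into their choice. Sbp and Zg16b encode secreted proteins and lie next to each other, at chr10:13186829-13186889 and chr10:13199752-13199811 (rn4). Sbp read -1.01, -4.68, -0.61 and -1.0 in wild-type vehicle and 3.98, -0.60, 2.29 and -1.16 in wild-type olaparib. In BRCA1+/- it read -2.02, -3.11, 2.95 and -0.11 against -0.28, -0.76, 1.78 and 2.10. The 6 highest arrays were the 6 with oviduct signal, the lowest of them at -0.11 and the next array at -0.28. Without those 6 arrays the differences were 0.98 for Atp2b2, 1.5 for Sbp, 0.74 for Cmahp, 1.09 for Ptprh and 1.21 for Zg16b. With the oviduct score as a covariate they were 0.48, 1.1, 0.99, 0.77 and 0.89.

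Among the 24 features lower by at least 1 in each genotype, the 5 named genes furthest below 0 were Hba-a3 (-4.82 ± 2.06, SE), Vom2r53 (-1.98 ± 1.01, SE), Ugt2b34l1 (-1.76 ± 0.85, SE), Ugt2b10 (-1.75 ± 0.66, SE) and Asmt (-1.56 ± 0.88, SE). The probe of Hba-a3, an alpha globin gene, gave values of an on or off kind. It read 3.90, 4.83, 4.27 and 3.66 in wild-type vehicle, 4.00, -7.90, -7.70 and 2.91 in wild-type olaparib, 4.35, 4.62, 4.91 and 5.01 in BRCA1+/- vehicle and 4.03, -7.84, 4.24 and 5.25 in BRCA1+/- olaparib. On the 3 low arrays it was not well above background, while the lowest signals of Hba-a1 and Hbb-b1 on any array were 7.5 and 6.47. Hba-a1 differed by -0.46 ± 0.24 (SE) and Hbb-b1 by -0.48 ± 0.23 (SE). The alpha globin genes are near-identical copies, so reads of single copies by a probe are uncertain.

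Ugt2b34l1 and Ugt2b10, neighbours on chromosome 14 that encode enzymes joining steroids and drugs to glucuronic acid, were lowest on the same arrays. Ugt2b10 read -4.11, -4.41, -2.87 and -5.21 in wild-type vehicle and -7.80, -4.42, -7.87 and -4.55 in wild-type olaparib. The BRCA1+/- ovaries read -3.44, -1.58, -3.50 and -3.26 against -6.23, -3.67, -2.50 and -5.33. Wild-type olaparib replicates 1 and 3, the lowest, are also the pair with the highest oviduct scores of that group, and without the 6 arrays with oviduct signal the difference was -1.38. In BRCA1+/- olaparib the oviduct scores were -1.95, -1.48, 2.55 and 1.63 in replicate order, so that there the lowest array had the lowest score. BRCA1+/- vehicle replicate 3, with the highest score of all, 3.62, read -3.50. The part of oviduct tissue in the difference of Ugt2b10 was not tested. Members of this Ugt2b family are similar in sequence, so that a probe may read more than 1 of them. Asmt, the last enzyme of melatonin synthesis, read high, at 0.08 and 1.07, in vehicle replicate 1 of each genotype, and all other arrays lay from -5.48 to -3.63. Vom2r53, a vomeronasal receptor gene, had overlapping groups in both genotypes.

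For 23 of the 266 genes the genotypes had opposite signs. Slc37a1, a glucose 6-phosphate transporter gene, was higher in wild-type, with 1.79, 1.14, 1.56 and 1.2 against 0.32, 0.70, 0.73 and 0.34 with vehicle, and differed by -0.01 in BRCA1+/-. Its interaction had an unadjusted p of 0.00541, and a second probe gave -0.38 ± 0.34 (SE). Tbx20, a heart transcription factor, was at least 3.92-fold lower in BRCA1+/- olaparib, where no array read it well above background and all 4 vehicle arrays did, and 1 of 8 wild-type arrays did. Kif26b, a kinesin-like gene, was at least 2.20-fold lower in wild-type olaparib, and 1 of 8 BRCA1+/- arrays read it well above background. It met the detection filter through wild-type vehicle alone and Tbx20 through BRCA1+/- vehicle alone, so that for both a difference was built into their choice. Without the 6 arrays with oviduct signal the pooled difference of Kif26b went from -0.86 to -1.3. Pcdhb5, a protocadherin gene, was at least 1.92-fold lower in wild-type olaparib and differed by 0.02 in BRCA1+/-. Tvp23a, a Golgi membrane protein gene, differed by 1.39 in BRCA1+/- and by -0.12 in wild-type, and its pooled 0.63 was 0.20 without those arrays. Tvp23a met the detection filter through the olaparib groups alone, so that a difference was built into its choice.

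Gene lists are described by how many members were higher or lower, beside 9197 of all 20187 genes (45.6%) above 0, 10990 (54.4%) below 0 and a median over all genes of -0.02. No list had a called gene, and members of a list share arrays, and are not independent. Of the DNA repair lists, that of the PARP family and ADP-ribose turnover had 11 of 22 members higher, with a median of -0.03. This list had 7 members higher in wild-type (median -0.16) and 15 in BRCA1+/- (median 0.13). Its member with the smallest p was Tnks, a tankyrase, at -0.31 ± 0.17 (SE), followed by Parg, which removes ADP-ribose chains, at 0.18 ± 0.17 (SE). Homologous recombination and Fanconi genes had 23 of 36 higher and a median of 0.05, or -0.035 without the 6 arrays with oviduct signal. In wild-type 8 of the 36 were higher (median -0.14) and in BRCA1+/- 30 were (median 0.24). Gen1, a resolvase of recombination intermediates, differed by -0.09 in wild-type and 0.61 in BRCA1+/-, while Mus81, another resolvase, differed by -0.27 and -0.16, and Xrcc2, another recombination gene, by 0.09 and 0.32. Base excision and single-strand break repair had 11 of 20 higher, with a median of 0.01. Of the 20, 6 were higher in wild-type (median -0.15) and 16 in BRCA1+/- (median 0.08). In this list Lig1, the ligase that seals replicated DNA, differed by 0.26 ± 0.15 (SE) and Fen1, its flap-cutting partner, by 0.29 ± 0.20 (SE), each near 0 in wild-type.

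Targets of p53, the factor that DNA damage activates, were evenly split over all arrays. Of 24 measured, 12 were higher and 12 lower, with a median of -0.02, and none had an unadjusted p under 0.05. Without the 6 arrays with oviduct signal the median was 0.17. Aen, a p53-induced nuclease, differed by 0.31 ± 0.16 (SE), Phlda3 by -0.32 ± 0.26 (SE) and Perp by 1.27 ± 0.74 (SE). Perp, also an epithelial junction gene, differed by 0.35 without the 6 arrays with oviduct signal. The oocyte damage checkpoint and BCL2 family had 8 of 21 higher and a median of -0.04. Tp63, whose product guards oocytes of resting follicles, differed by -0.32 ± 0.26 (SE), with a 95% interval from -0.88 to 0.25, and by -0.04 ± 0.28 (SE) at a second probe. Hrk, a BH3-only death gene, differed by 0.30 ± 0.27 (SE).

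Cell cycle genes pointed in opposite directions in the genotypes. Of 48 members, 34 were higher in the pooled difference, with a median of 0.08, but 6 were higher in wild-type (median -0.21) and 46 in BRCA1+/- (median 0.38). The median was -0.16 on slide 1 and 0.40 on slide 2. Mcm3, a subunit of the replicative helicase, differed by -0.10 in wild-type and 0.72 in BRCA1+/-, but a second probe read on every array gave 0.14 in both. Mybl2, a MYB factor of cycling cells, differed by 0.34 ± 0.22 (SE), and Aurka, a mitotic kinase, by -0.49 ± 0.29 (SE). Whether the lean of the whole list differed between the genotypes was not tested.

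Immediate early genes, which respond within minutes to signals and handling, also split by genotype. Of 27 measured, 17 were higher in wild-type (median 0.15) and 0 of 27 in BRCA1+/- (median -0.45), and the pooled median was -0.16, or -0.026 without the 6 arrays with oviduct signal. Klf2, a factor of endothelium and resting lymphocytes, was similar in both, with -0.41 in wild-type and -0.45 in BRCA1+/-, and a pooled unadjusted p of 0.0381. Fosl1 differed by -1.41 ± 0.84 (SE), and by -0.19 without the 6 arrays with oviduct signal, and Fosl2 by -0.42 ± 0.29 (SE).

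Oocyte genes of growing follicles were lower in nearly all cases. Of 25 measured, 24 were lower and 1 higher, with a median of -0.18 (-0.12 in wild-type, -0.21 in BRCA1+/-), none with an unadjusted p under 0.05. It was -0.54 without the 6 arrays with oviduct signal. Nlrp4, a maternal factor, differed by -0.60 ± 0.48 (SE), Kpna7, an oocyte importin, by -0.35 ± 0.33 (SE) and Zar1, a regulator of stored oocyte RNA, by -0.25 ± 0.33 (SE). List scores ran from -0.55 to 0.55 in wild-type vehicle and -0.88 to 1.06 in wild-type olaparib, and from -0.51 to 0.81 in BRCA1+/- vehicle and -0.26 to 0.43 in BRCA1+/- olaparib, so that the groups overlapped throughout. The median was -0.50 on slide 1 and 0.20 on slide 2. It was -0.39 without wild-type olaparib replicate 3 and -0.06 without wild-type olaparib replicate 2. Genes of small-follicle and germline oocytes had 6 of 11 higher and a median of 0.01. Taf4b, a transcription cofactor of the follicle reserve, differed by 0.25 ± 0.15 (SE), but by -0.12 and -0.08 at 2 other probes read on every array. Tdrd1, a piRNA pathway gene, differed by 0.13 ± 0.26 (SE).

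Granulosa cell genes had 12 of 20 higher and a median of 0.09, from -0.14 in wild-type and 0.15 in BRCA1+/-. Inhbb, the beta B subunit of inhibin and activin that granulosa cells of growing follicles make, had an unadjusted p of 0.0334. It read 5.88, 6.07, 5.51 and 5.08 in wild-type vehicle and 5.83, 6.13, 5.97 and 5.88 in wild-type olaparib. In BRCA1+/- it read 5.33, 5.06, 3.83 and 5.36 against 6.29, 6.22, 4.89 and 5.72. The groups overlapped in both genotypes, and in BRCA1+/- replicate 3 was the lowest with either treatment. Pooled, the difference was 0.60 ± 0.26 (SE, 95% interval 0.05 to 1.15), or 1.52-fold, with 0.32 in wild-type and 0.89 in BRCA1+/-, and 0.64 with normexp correction. Nr0b1, a repressor of steroid synthesis, differed by -0.54 ± 0.33 (SE) and Esr2, the oestrogen receptor of granulosa cells, by -0.23 ± 0.18 (SE). The wider list of inhibin, activin and BMP signalling had 15 of 34 higher and a median of -0.03, with Smad7, an inhibitor of the pathway, at -0.33 ± 0.20 (SE).

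Steroid synthesis enzymes had 10 of 23 higher and a median of -0.06. They split by genotype, with 4 higher in wild-type (median -0.21) and 17 in BRCA1+/- (median 0.12). Akr1c3, an aldo-keto reductase that acts on steroids, differed by -2.63 ± 1.42 (SE), with -4.42 in wild-type and -0.85 in BRCA1+/-, and by -0.76 without the 6 arrays with oviduct signal. Theca and interstitial cell genes had 7 of 14 higher and a median of 0.00. Cyp17a1, the androgen-making enzyme of theca cells, differed by 1.07 ± 1.2 (SE), with 3.44 in wild-type and -1.30 in BRCA1+/-. Insl3, a theca hormone, differed by 0.35 ± 0.35 (SE) and Tcf21, a stromal precursor factor, by 0.26 ± 0.29 (SE). Luteal cell genes had 2 of 13 higher and a median of -0.13, which was 0.10 without wild-type olaparib replicate 3 and 0.19 without the 6 arrays with oviduct signal. Their median was -0.31 in wild-type and 0.06 in BRCA1+/-. Ptgfr, the receptor through which prostaglandin F2 alpha ends the corpus luteum, differed by -1.52 ± 1.02 (SE) and Sfrp4 by -0.74 ± 0.55 (SE). Hedgehog signalling had 9 of 13 higher and a median of 0.03, with Sufu, an inhibitor of the pathway, at 0.24 ± 0.14 (SE), or -0.01 ± 0.15 (SE) at a second probe, and the co-receptors Cdon and Boc each at 0.36, with SE of 0.27 and 0.28.

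Genes of cholesterol synthesis, uptake and transport leaned higher in both genotypes. Of 29 measured, 23 were higher, with a median of 0.23 (0.19 in wild-type, 0.22 in BRCA1+/-), and 17 of the 29 were higher in both genotypes. Srebf1, a transcription factor of lipid synthesis, differed by 0.33 ± 0.17 (SE), with 0.42 in wild-type and 0.23 in BRCA1+/-, and Pmvk, a kinase of the mevalonate pathway, by 0.29 ± 0.23 (SE). Npc2, which carries cholesterol out of lysosomes, differed by -0.22 ± 0.13 (SE). None of the 29 had an unadjusted p under 0.05. List scores overlapped, from -0.61 to 0.79 in wild-type vehicle, -1.11 to 0.82 in wild-type olaparib, -0.48 to 0.20 in BRCA1+/- vehicle and -0.35 to 0.89 in BRCA1+/- olaparib. The median was 0.35 on slide 1 and 0.01 on slide 2, it was 0.02 without BRCA1+/- olaparib replicate 1 and 0.40 without wild-type vehicle replicate 1, and it was 0.68 without the 6 arrays with oviduct signal.

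Markers of immune cells were mostly lower with olaparib. Of 21 macrophage genes 17 were lower, with a median of -0.34 (-0.55 in wild-type, -0.17 in BRCA1+/-). Tyrobp, an adaptor of myeloid receptors, differed by -0.50 ± 0.26 (SE), Fcer1g, its relative, by -0.55 ± 0.29 (SE) and Spi1, the master factor of myeloid cells, by -0.48 ± 0.27 (SE). Of 15 genes of T and NK cells 13 were lower, with a median of -0.26, and 14 of the 15 had the same sign in both genotypes. Cd3g, a chain of the T cell receptor complex, read -2.74, -1.77, -1.96 and -2.59 in wild-type vehicle and -2.87, -3.33, -2.17 and -2.67 in wild-type olaparib. The BRCA1+/- ovaries read -2.07, -1.95, -1.96 and -1.86 against -2.80, -1.6, -2.50 and -2.78. The BRCA1+/- vehicle arrays lay close together and 3 of 4 olaparib arrays below them, and the pooled difference was -0.48 ± 0.22 (SE) with an unadjusted p of 0.0431. Zap70, the T cell receptor kinase, differed by -0.33 ± 0.17 (SE) and Il2rb by -0.47 ± 0.27 (SE). None of the 6 B cell genes was higher in the pooled difference (median -0.14), but 4 of 6 were in wild-type (median 0.0066) and the median on slide 1 was 0.11, with Cd79a at -0.29 ± 0.25 (SE) and Cd22 at -0.26 ± 0.26 (SE).

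The medians of the immune lists varied with single ovaries. Macrophage scores ran from -0.41 to 0.54 in wild-type vehicle, -1.13 to 0.31 in wild-type olaparib, -0.04 to 0.36 in BRCA1+/- vehicle and -0.47 to 0.39 in BRCA1+/- olaparib. Without wild-type olaparib replicate 3, the lowest, the median of the macrophage list was -0.14, and that of T and NK cells was -0.13. The macrophage median was -0.30 without the 6 arrays with oviduct signal. Granulocyte and mast cell genes had 5 of 7 higher and a median of 0.38, or 0.05 without those 6 arrays, among them Lcn2 (0.86 ± 0.77, SE), Tpsab1 (0.95 ± 1.04, SE) and Ltf (0.69 ± 1.09, SE). The median of this list was 1.31 in wild-type and -0.21 in BRCA1+/-. Lcn2 differed by 1.93 in wild-type and -0.21 in BRCA1+/-, and Ltf by 2.45 and -1.06. Tpsab1 met the detection filter through wild-type olaparib alone, so that a difference was built into its choice. Epithelia of the genital tract also express Lcn2 and Ltf.

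The interleukin 1 family and innate cytokine list, which holds Il33, had 10 of 25 higher and a median of -0.11. Tnf differed by 0.33 ± 0.18 (SE) and Nfkbia, an inhibitor that NF-kB induces, by -0.22 ± 0.15 (SE). Interferon-stimulated genes had 17 of 28 higher and a median of 0.07, with Mx2 at 0.27 ± 0.19 (SE), Ifih1 at -0.28 ± 0.25 (SE) and Irf9 at 0.22 ± 0.21 (SE).

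Several other probes gave smaller differences than the one that stands for the gene in these lists. They were 0.11 for Lig1, 0.08 for Irf9, 0.19 for Srebf1, -0.02 for Vwf, -0.31 for Tyrobp and -0.13 for Cd22, while those of Mx2 and Pdk4 were larger, at 0.82 and -0.71.

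**Figure D4:**
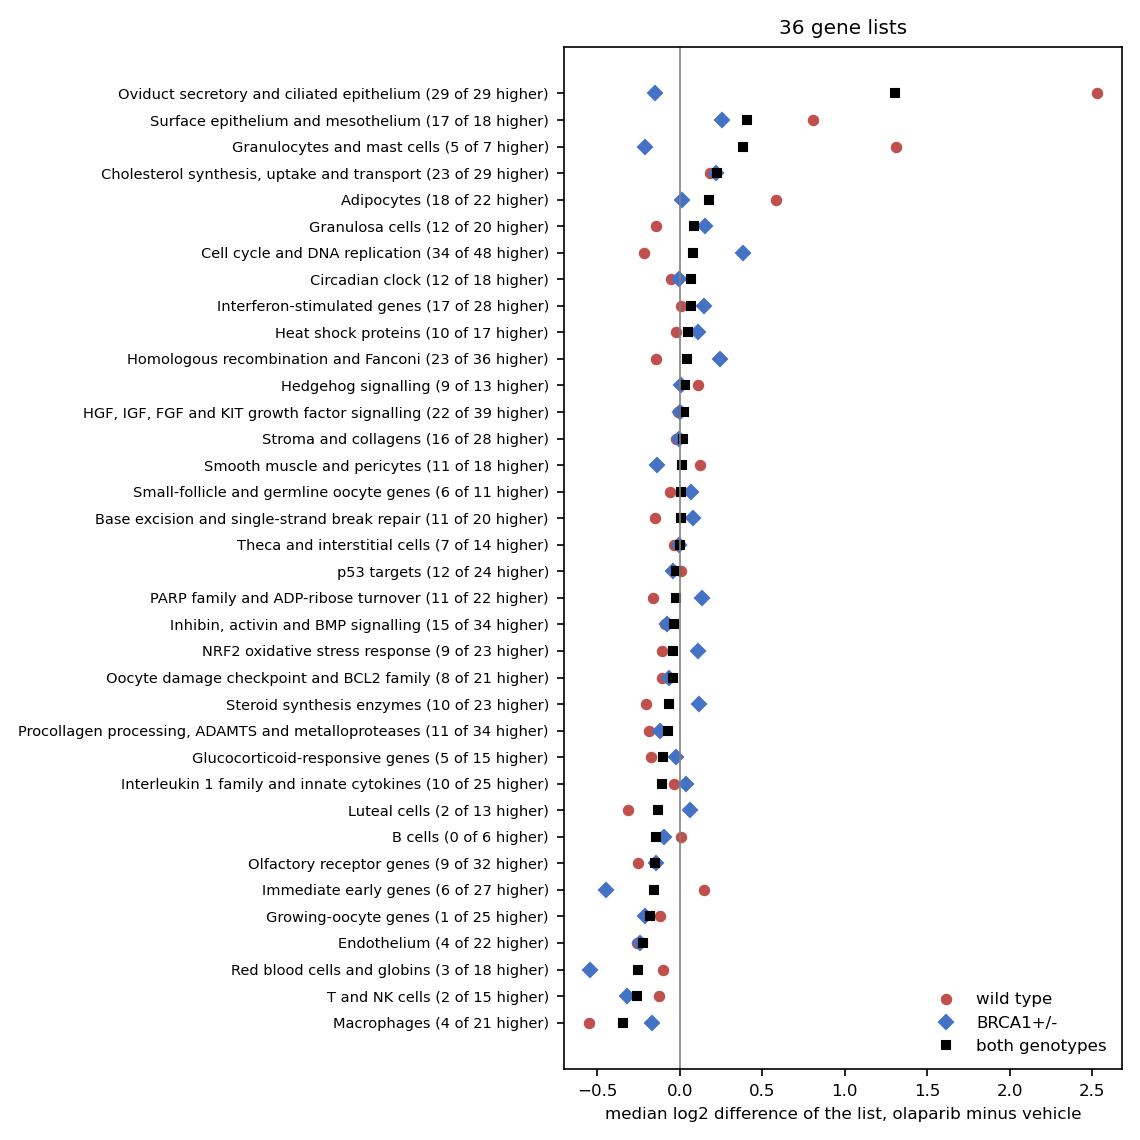
Median log2 difference, olaparib minus vehicle, over the measured members of 36 gene lists, in wild-type (red circles), in BRCA1+/- (blue diamonds) and pooled (black squares), with the count of members above 0 in the pooled difference. Oviduct genes stand apart with a pooled median of 1.30, from 2.52 in wild-type and -0.15 in BRCA1+/-. Macrophage genes are lowest, at -0.34.

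Endothelial genes were lower in 18 of 22 cases, with a median of -0.22 (-0.26 in wild-type, -0.24 in BRCA1+/-). Nos3, the nitric oxide synthase of vessels, differed by -0.47 ± 0.35 (SE), Esam by -0.46 ± 0.35 (SE) and Vwf by -0.22 ± 0.18 (SE). Without the 6 arrays with oviduct signal the list's median was 0.10, and without wild-type olaparib replicate 3 it was -0.09. Smooth muscle and pericyte genes had 11 of 18 higher and a median of 0.01, with the potassium channel subunits Abcc9 and Kcnj8 at -0.30 ± 0.26 (SE) and -0.31 ± 0.28 (SE). That list's median was 0.12 in wild-type and -0.14 in BRCA1+/-. Stroma and collagen genes had 16 of 28 higher and a median of 0.02, with Nr2f2, a factor of stromal cells, at -0.19 ± 0.11 (SE), Col15a1 at 0.42 ± 0.37 (SE) and Col14a1 at 0.38 ± 0.35 (SE). Procollagen processing enzymes and metalloproteases, the list of Adamts3, had 11 of 34 higher and a median of -0.07, with Adamts15 at 0.84 ± 0.47 (SE) and Mmp11 at -0.29 ± 0.19 (SE). Growth factor signalling by HGF, IGF, FGF and KIT, the list of Hgf, had 22 of 39 higher and a median of 0.03. Erbb3, a receptor of neuregulins in epithelia, differed by 1.06 ± 0.53 (SE), and by 0.27 without the 6 arrays with oviduct signal.

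Lists of stress and rhythm were close to the median of all genes. Targets of NRF2, which answers oxidative stress, had 9 of 23 higher and a median of -0.04, heat shock proteins had 10 of 17 higher and 0.05, circadian clock genes 12 of 18 and 0.07, and glucocorticoid-responsive genes 5 of 15 and -0.10. The NRF2 median was -0.11 in wild-type and 0.11 in BRCA1+/-. Sod2, the mitochondrial superoxide dismutase, differed by 0.29 ± 0.22 (SE), Akr1b8 by -0.78 ± 0.55 (SE) and Gpx2, an epithelial glutathione peroxidase, by 1.65 ± 1.38 (SE), or 0.25 without the 6 arrays with oviduct signal. Akr1b8 had opposite signs, with -2.115 in wild-type and 0.55 in BRCA1+/-. Its interaction had an unadjusted p of 0.0293 and was not called. Hspa4l, a co-chaperone, differed by 2.06 in wild-type and -0.83 in BRCA1+/-, Dnaja1 by 0.16 ± 0.11 (SE) and Hspb8 by 0.48 ± 0.46 (SE). Nfil3, a repressor tied to the clock, differed by -0.41 ± 0.17 (SE), with -0.28 in wild-type and -0.55 in BRCA1+/- and an unadjusted p of 0.0324. In BRCA1+/- its olaparib arrays, at 0.01, -0.08, 0.34 and 0.00, all lay below the vehicle arrays, at 0.82, 0.64, 0.66 and 0.35. Per2 differed by 0.27 ± 0.22 (SE), Bmal1 by -0.36 ± 0.27 (SE), Cebpd by -0.38 ± 0.18 (SE) and Pdk4 by -0.39 ± 0.28 (SE).

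Markers of tissue next to the ovary were higher on some of the wild-type olaparib arrays, and their part in the other differences was not tested. Oviduct scores there were 3.49, -1.65, 3.14 and -0.63 in replicate order, and those of wild-type vehicle ran from -2.31 to -1.04. Adipocyte scores of the same olaparib arrays were 1.80, 1.24, -0.03 and -0.92. All 29 measured oviduct genes were higher in the pooled difference, with a median of 1.30, made of 2.52 in wild-type and -0.15 in BRCA1+/-. Dnai1, a dynein of motile cilia, was at least 8.31-fold higher in wild-type, where no vehicle array read it well above background, and differed by -0.07 in BRCA1+/-. Its wild-type olaparib arrays had an SD of 2.94, and 3 of 4 read it well above background. Ccdc40, another cilium gene, differed by 1.80 in wild-type and 0.11 in BRCA1+/-, and Cdh1, the epithelial cadherin, by 2.02 and -0.47. Without the 6 arrays with oviduct signal the list's median was 0.24. Surface epithelium and mesothelium genes had 17 of 18 higher and a median of 0.41, and 0.24 without those arrays, with Wt1 at 0.46 ± 0.27 (SE) and Lgals7 at 0.30 ± 0.16 (SE). Adipocyte genes had 18 of 22 higher and a median of 0.18 (0.59 in wild-type, 0.02 in BRCA1+/-), with Thrsp, a lipogenic factor, at 2.22 ± 1.08 (SE), Cidea, a lipid droplet protein gene, at -0.43 ± 0.24 (SE), and Acvr1c as above. Cidea had opposite signs, with 0.16 in wild-type and -1.015 in BRCA1+/-, and an unadjusted interaction p of 0.0296 that was not called. Red blood cell and globin genes had 15 of 18 lower and a median of -0.25, and olfactory receptor genes 23 of 32 lower and a median of -0.15, with Or51i2 at -0.55 ± 0.27 (SE) and Or5h25d at -0.26 ± 0.16 (SE).

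Leaving out the 6 arrays with oviduct signal turned the sign of further list medians, which became -0.082 for base excision repair, -0.046 for interferon-stimulated genes, 0.066 for NRF2 targets, 0.15 for steroid enzymes, -0.24 for small-follicle oocyte genes, 0.13 for theca cells, -0.0051 for growth factor signalling and 0.043 for olfactory receptors. The median of the globin list was -0.48 without them, that of T and NK cells -0.14, that of the interleukin 1 list -0.013, that of the cell cycle list 0.0078 and that of stroma 0.11.

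**Figure D5:**
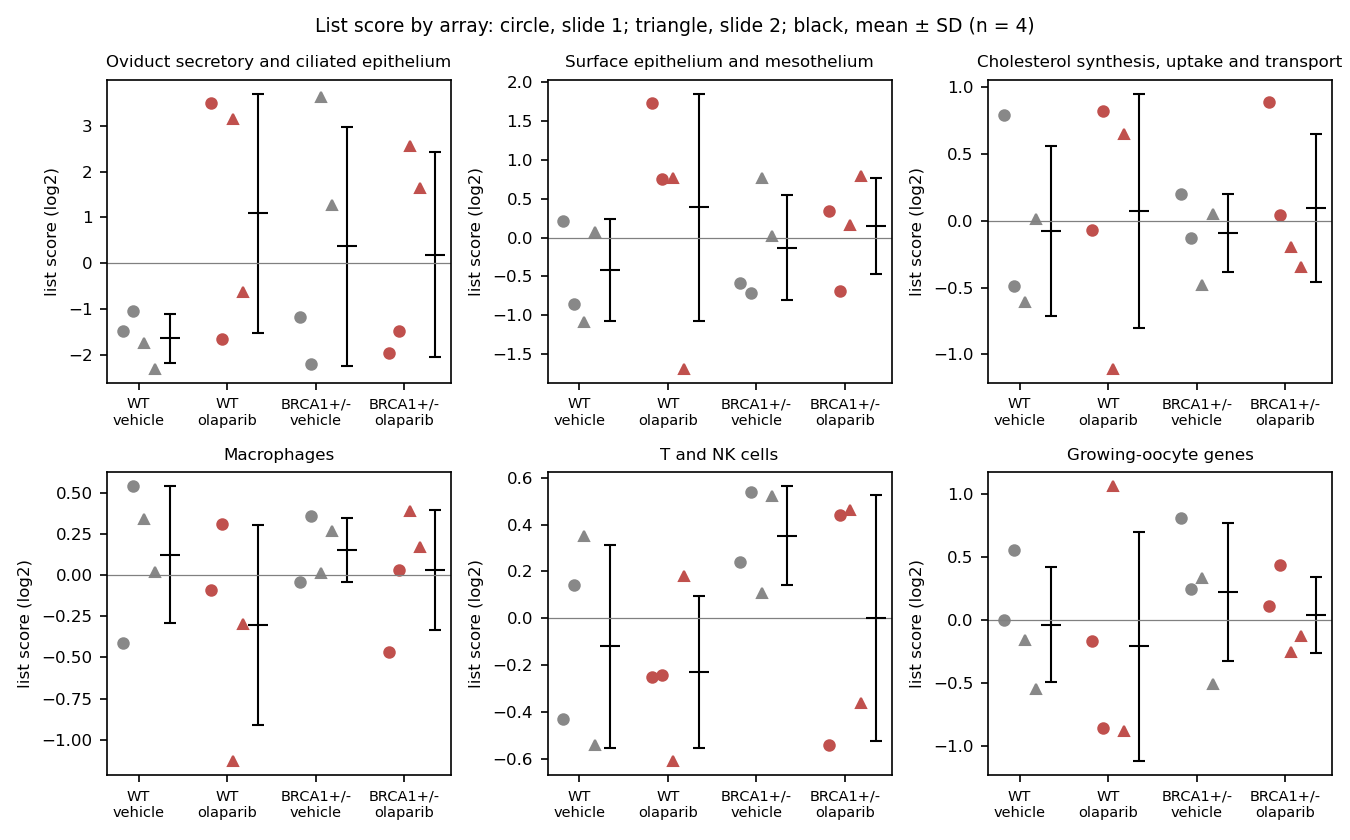
Score of 6 gene lists on each array, the mean log2 signal of the list's genes after centring each over the 16 arrays. Points are ovaries (circles slide 1, triangles slide 2, grey vehicle, red olaparib) and black bars the mean and SD of 4. The oviduct score is above 0 on 6 arrays of 3 groups and on none of wild-type vehicle, and in every panel olaparib and vehicle arrays overlap within each genotype.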

How the data were processed

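Total RNA of 16 ovaries was labelled with Cy3 and hybridised by the authors to single-colour Agilent rat arrays, per the labels. Feature Extraction 10.7, per the submitters' processing notes, gave the processed signal, an intensity in the deposited scanner files, and probe positions are on rn4, per the file headers. The deposited series matrix holds log2 values, each column being the log2 processed signal minus a constant per array. Mean spot and background intensity from the deposited scanner files entered only the normexp alternative (offset 50).

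Of 45598 non-control probes, 26820 were kept, being well above background on at least 3 of 4 arrays of a group, and 12 others lacked a usable spot. The probe with the highest mean stood for its gene, which gave 20187 features, 14510 with a symbol. Names came from RefSeq accessions (24360 probes), symbols (6737), older symbols (260) or the file (4925), and 9316 probes had none. Limma 3.58.1 in R 4.3.3 fitted a mean per group (12 residual degrees of freedom), tested on simulated data. Every p is limma's, two-sided, with Benjamini-Hochberg adjustment over all features. The labels number the ovaries but do not say how animals were housed or paired, so p-values measure the spread between these ovaries. The main fit had no term for the slide, so this spread, and each SE, includes the difference between the slides. With a slide block 369 genes had an unadjusted p under 0.05, of which 338 had the same sign in both genotypes, and none was called. The number of arrays limits the precision.

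The members and the 36 gene lists were chosen with earlier results of these data known. Genes were named by rule: Parp1, Parp2, Parp3 and Brca1, the 12 smallest p in each direction with the same sign in both genotypes, up to 8 in each direction fully separated in both genotypes, up to 5 in each direction with at least 1 log2 in each genotype, the 3 smallest p of each list (some are not reported here), and the 5 smallest p with opposite signs. The alternatives comprised other scalings, filters, slide and replicate blocks, array weights, slides alone and leaving out each array. A further 3, on the oviduct score, were chosen after seeing the data.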

Additional observations from a re-analysis of the deposited data

Results flagged for a closer look

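In each group of 4 the array farthest from the others was set against the range of the group by Dixon's criterion. This was done for 44 named genes in 4 groups each, and 12 of 176 cases stood out, where chance gives about 1 in 20. In wild-type vehicle these were Akr1d1 at -6.17 in replicate 3 (others -7.08 to -6.95), Sbp at -4.68 in replicate 2 (others -1.01 to -0.61), Zg16b at -3.03 in the same replicate (others 0.03 to 0.50) and Sytl2 at -1.2 in replicate 4 (others -0.94 to -0.90). In wild-type olaparib they were Brca1 at 0.19 in replicate 3 (others -0.89 to -0.72), Rasl10a at -0.13 in replicate 4 (others 0.02 to 0.04), Acadsb at 3.16 in replicate 2 (others 2.69 to 2.76) and Tbx20 at -4.17 in replicate 4 (others -7.84 to -7.36). In BRCA1+/- vehicle they were Parp2 at 0.21 in replicate 3 (others 0.96 to 0.99), Pcdhb5 at -5.17 in replicate 3 (others -4.89 to -4.84) and Ugt2b10 at -1.58 in replicate 2 (others -3.50 to -3.26). In BRCA1+/- olaparib it was Hba-a3 at -7.84 in replicate 2 (others 4.03 to 5.25). Values are log2 signals.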

How the results depend on the processing

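No gene was called in any of the 32 alternatives, and the lowest adjusted p was 0.518, without wild-type olaparib replicate 4. Genes at an unadjusted p under 0.05 (266), and those of them with the same sign in both genotypes (243), were 664 and 623 without the filter on dim probes, 516 and 447 with the replicate block, 969 and 907 on slide 1 alone, 172 and 103 on slide 2 alone and 754 and 678 with array weights. They were 446 and 435 without the 6 arrays with oviduct signal, 433 and 405 with the oviduct score as a covariate and 438 and 405 with the slide block added. Leaving out 1 array gave 155 (BRCA1+/- vehicle replicate 1) to 1050 (wild-type olaparib replicate 4), and 140 to 941. Other arrays moving the 266 by over 1.5 times were wild-type vehicle replicate 1 (448) and olaparib replicate 1 (164) and BRCA1+/- vehicle replicate 3 (582). Features fully separated in both genotypes (1) were 2 with quantile normalization and without the filter, 1072 and 230 on slides 1 and 2 alone, where a group is 2 arrays, 264 without the 6 arrays, and 1 to 8 leaving out 1 array. The share of higher genes among those with p under 0.05 (30.8%) was 44.0% with quantile normalization, 19.7% without the filter, 48.1% with array weights, 44.0% and 50.6% on slides 1 and 2 alone, 43.3% without the 6 arrays and 52.9% with the oviduct score. Leaving out 1 array gave 20.8% to 67.0%, the latter without BRCA1+/- vehicle replicate 3, so that the lean to lower genes depends on that array.

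The ovaries were not treated as paired, since the labels give no pairing and not every same-numbered pair correlated above 0.1. Same-numbered pairs had correlations from -0.44 to 0.71, 13 of 24 above 0.1, and 26 of 48 comparisons matched best with the same number. Same-numbered ovaries also share a slide, and a part of the number apart from the slide was not tested.

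Of 4540 alternative values of 143 named features 61 reversed, and the cause was not tested. On slide 1 alone these were Brca1 -0.21, Xrcc2 -0.017, Tdrd1 -0.098, Il1rl1 0.18 and 1 gene not reported here. On slide 2 alone they were Parp1 0.039, Parp2 0.16, Parp3 -0.10, Parg -0.026, Irf9 -0.081, Pdk4 0.021, Cdon -0.034, Col15a1 -0.085, Col14a1 -0.12, Kpna7 0.11 and Zar1 0.24. Parp3 was -0.0026 with the 75th percentile taken anew, -0.0031 with quantile normalization and -0.012 with normexp, and Met was -0.018 over the mean of its probes. Without the 6 arrays they were Parp3 -0.068, Brca1 -0.089, Hspb8 -0.0022, Tdrd1 -0.24, Nos3 0.0052, Esam 0.035, Kcnj8 0.057, Ltf -0.82, Met -0.17 and Il1rl1 0.27. With the oviduct score, and with the slide block added, they were Parp1 0.022 and 0.012, Gpx2 -0.024 and -0.032, Hspb8 -0.040 and -0.077, Lcn2 -0.066 and -0.083, Tpsab1 -0.23 and -0.36, Ltf -0.52 and -0.76, and Met -0.0088 and -0.064, and Tdrd1 -0.087 with the block. Leaving out 1 array gave ranges of -0.17 to 0.025 for Parp2, -0.13 to 0.17 for Parp3, -0.036 to 0.26 for Tdrd1, -0.0072 to 0.19 for Met and -0.38 to 0.12 for Il1rl1. Without the 6 arrays the median of p53 targets was 0.17, outside its range of -0.040 to 0.049 on leaving out 1 array. Other list medians left that range too. Among them were cholesterol genes at 0.68 (range 0.022 to 0.40), growing-oocyte genes at -0.54 (-0.39 to -0.058) and endothelium at 0.10 (-0.34 to -0.086). Of the 24 leading genes 10 were well above background on all 16 arrays, and signal over background limits the rest.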
